A study of Mus musculus with 4 samples.

Results

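The genes described here were 10 ligands and receptors of the transforming growth factor beta (TGF-beta) superfamily, out of 53647 genes counted in mouse primary myotubes. They were chosen by name for their place in the pathway, with earlier results of these data known. They comprised 5 secreted ligands (Tgfb1, Tgfb2, Tgfb3, Bmp4 and Inhba) and 5 transmembrane receptor kinases (Tgfbr1, Tgfbr2, Acvr2a, Acvr2b and Bmpr1a). All 10 had enough counts to be tested. Myoblasts had been taken from limb muscles of wild-type (WT) pups aged 2 to 3 days, grown with basic fibroblast growth factor and switched to horse serum, in which they fuse into multinucleated myotubes. Bulk RNA was sequenced from 2 libraries labelled Control and 2 labelled EDA-A2, the latter given 250 ng/mL of EDA-A2 for 24 h, and cells were harvested 72 h after differentiation began. EDA-A2 is the splice isoform of ectodysplasin A, a ligand of the tumour necrosis factor family, that binds the receptor EDA2R. The labels give no separate cultures, pups or days for the replicates, so p-values measure only the spread between these libraries, which may be technical.

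Ligands of this superfamily are secreted dimers that bring together type II and type I receptors, both serine/threonine kinases, and the type I receptor then phosphorylates SMAD proteins that enter the nucleus. TGF-betas and activins act mainly through Smad2 and Smad3, bone morphogenetic proteins (BMPs) through Smad1, Smad5 and Smad9. In skeletal muscle, myostatin and activins acting on activin type II receptors restrain muscle mass, BMP signalling favours it, and TGF-betas are known for holding back myoblast differentiation and fusion and for driving matrix deposition by fibroblasts.

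Counts on genes summed to between 29444155 and 29746863 per library, so that 3 counts, the limit that a count of 0 allows, came to 0.101 to 0.102 CPM (counts scaled to a common library total). The myotube label was matched by its markers, all 12 of which were tested. On TMM-adjusted totals, their summed level was 26365.6 and 24881.9 CPM under Control and 19102.0 and 19141.0 CPM under EDA-A2, with 5 markers lower (Myh3, Myh8, Acta1, Actn2 and Mb) and 1 higher (Mymx). The 6 myoblast markers summed to 1588 to 1676 CPM, with 1 lower (Cdh15, log2 fold change -0.47, edgeR adjusted p = 0.00318), and the 6 markers of dividing cells to 741.7 to 880.7 CPM, with none called. The 10 fibroblast markers summed to 1725 and 1799.9 CPM under Control and 1652 and 1680.1 CPM under EDA-A2. Of these markers, 7 were tested, none was called and 2 were at 0 in every library. Col3a1 (38820 to 45682 raw counts) and Col1a1 (4769 to 9004) dominated the fibroblast sum, and no other marker of that list had more than 1227 counts. The 8 macrophage markers summed to 8.01 to 12.5 CPM and the 4 T cell markers to at most 0.0348 CPM. In bulk RNA, fewer cells of a type and less RNA per cell cannot be told apart.

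Under EDA-A2, the myotube cultures held less Tgfb3 RNA, by a fold of 0.807, and this was the only one of the 10 genes to change past the threshold. Next in order of p came Tgfb2, with a fold of 1.25, and Tgfbr2, the receptor that binds TGF-beta ligands, with a fold of 0.854, both short of it. Tgfb1, Acvr2a, Bmpr1a and Tgfbr1 had folds of 0.967 to 1.01, and the low counts of Acvr2b, Bmp4 and Inhba left wide intervals.

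Of the 10 genes, 1 passed the adjusted threshold of 0.05 (edgeR's quasi-likelihood test, Benjamini-Hochberg adjustment over the 15173 genes tested). It was Tgfb3, which fell. Of all genes tested, 4.57% passed in either direction and 2.13% as lower. Unadjusted p-values under 0.05 were found for 3 of the 10 genes and for 15.6% of all genes. The counts of the conditions did not overlap for 4 of the 10, against a background of 45.0% of all genes. The median log2 fold change, EDA-A2 against Control, was -0.037 over the 10 genes and -0.0021 over all genes. Normalised counts below are counts scaled by the TMM factors of the libraries to the mean effective library size, and folds are EDA-A2 over Control.

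The count of called genes depended on the processing. The same test called 1 of the 10 with DESeq2 size factors, upper quartile factors, at least 10 counts in every library or protein-coding genes only, where 4.63%, 4.28%, 4.65% and 5.01% of all genes passed, as did the DESeq2 Wald test, where 4.0% passed. It called 2 with total counts (4.48% of all genes), with a replicate block (7.03%) and at an adjusted threshold of 0.1 (6.81%), and 0 with no filter (0.337%). Leaving out 1 library gave 0 of the 10 each time, at 2.57% of all genes without EDA-A2 replicate 1, 2.40% without EDA-A2 replicate 2 and 0.00% without either Control library.

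**Figure D1:**
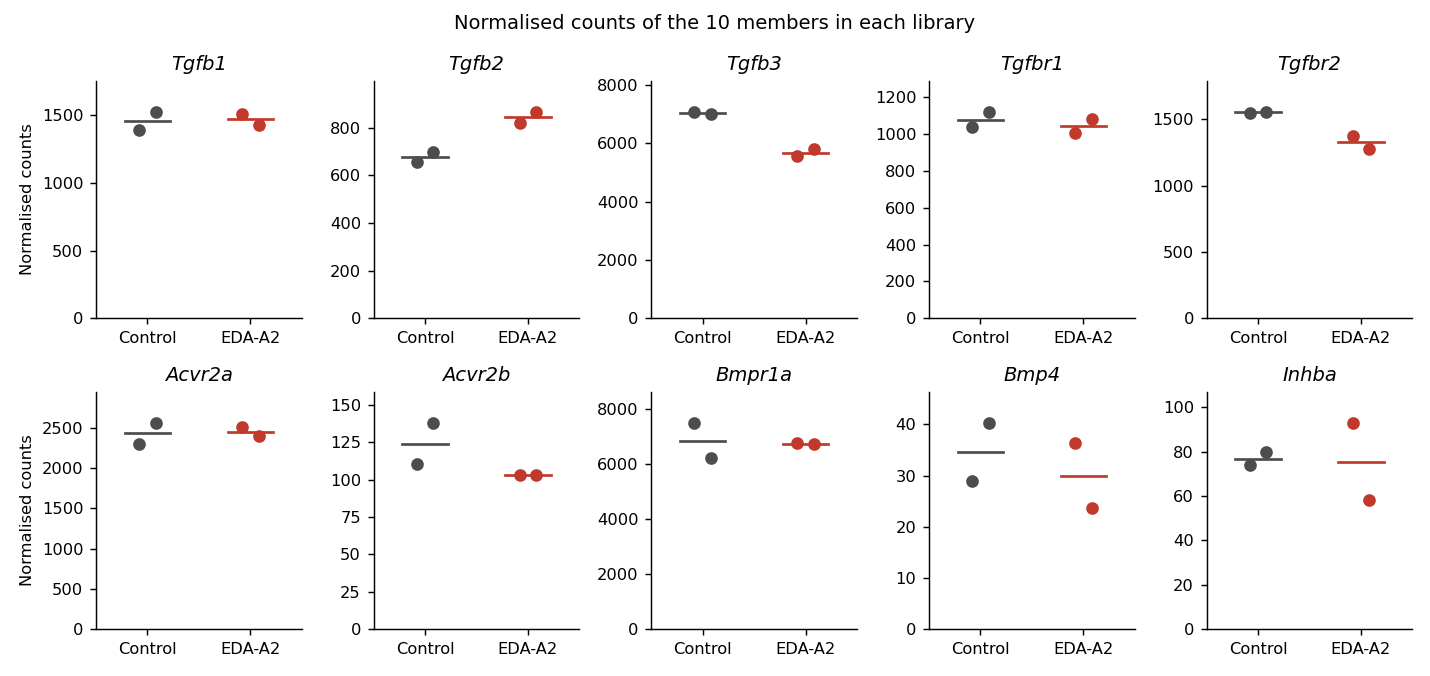
Normalised counts of each of the 10 genes in the 2 Control and 2 EDA-A2 libraries, 1 panel a gene with its own axis starting at 0; points are libraries and short lines are means. Tgfb3 sat at 7011 to 7077 in Control and 5562 to 5810.15 in EDA-A2, Tgfb2 the other way round at 654.2 to 695.8 and 820.4 to 865.8, and Tgfb1 overlapped.

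Tgfb3 (ENSMUSG00000021253, GRCm39 chr12:86102756-86126301, minus strand) encodes TGF-beta 3, a ligand released as a latent complex, which is best known for its part in palate fusion and in scarring. Its normalised counts were 7077 and 7011 in Control replicates 1 and 2 and 5562 and 5810.15 in EDA-A2 replicates 1 and 2. Both EDA-A2 libraries lay below both Control libraries, by much more than libraries of one condition differed from each other. The means were 7044 ± 46.5 (SD, n = 2) and 5686 ± 176 (SD, n = 2). The log2 fold change of Tgfb3 was -0.31 (SE 0.066, 95% interval -0.45 to -0.17, edgeR adjusted p = 0.0123), a fold of 0.807. Leaving out any 1 library kept the direction and ended the call, with adjusted p of 0.288 without Control replicate 1, 0.204 without Control replicate 2, 0.210 without EDA-A2 replicate 1 and 0.0726 without EDA-A2 replicate 2. The lower myotube marker sum moved with the lower Tgfb3 counts across these libraries, and its part in the result was not tested. Ttll5, an opposite-strand neighbour that shares 179 exon bases with Tgfb3, had 1101 to 1138 counts in Control and 1234 to 1252 in EDA-A2, so its counts ran the other way.

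Tgfb2 (ENSMUSG00000039239, chr1:186354985-186438294, minus strand) encodes TGF-beta 2, the isoform that depends most on the co-receptor betaglycan for binding its type II receptor. Its normalised counts were 654.2 and 695.8 under Control and 820.4 and 865.8 under EDA-A2. Both EDA-A2 libraries were above both Control libraries. The means were 675.02 ± 29.4 (SD, n = 2) and 843.1 ± 32.1 (SD, n = 2), a fold of 1.25. On the log2 scale the change of Tgfb2 was 0.32 (SE 0.089, 95% interval 0.13 to 0.51) and missed the threshold, with an edgeR adjusted p of 0.0558 and an unadjusted p of 0.00272. Scaling by total counts in place of TMM gave Tgfb2 an adjusted p of 0.0340 at a log2 fold change of 0.38, and a replicate block one of 0.0219. The adjusted p was 0.173 in the DESeq2 Wald test, 0.270 with no filter and 0.195 to 0.431 with 1 library left out.

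Tgfb1 (ENSMUSG00000002603, chr7:25386390-25404506, plus strand) encodes TGF-beta 1, the isoform most studied in fibrosis and immune regulation. It had 1389.9 and 1525 normalised counts in Control and 1512 and 1426 in EDA-A2. The libraries of the conditions overlapped, and the Control libraries differed from each other by far more than the means of the conditions did. The log2 fold change of Tgfb1 was 0.012 (SE 0.079, edgeR adjusted p = 0.971), and its 95% interval ran from -0.16 to 0.18, so that changes as large as that of Tgfb3 lay outside the interval.

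The isoforms can be set against each other only per length. On the RPKM scale, that is CPM divided by the length of the merged exons in kilobases, the summed level of the 3 TGF-beta ligands was 58.7 and 59.4 in Control and 50.5 and 51.8 in EDA-A2. Tgfb3 made up most of that sum in every library, with 78.2% and 76.6% in Control and 71.3% and 72.7% in EDA-A2. Tgfb1 made up 15.8% and 17.1% of the summed RPKM in Control and 19.9% and 18.3% in EDA-A2. The share of Tgfb2 was 6.02% and 6.33% in Control and 8.77% and 9.02% in EDA-A2. For each of the 3 isoforms the shares of the conditions did not overlap, lower under EDA-A2 for Tgfb3 and higher for Tgfb1 and Tgfb2. These shares must add up to the whole, so a lower share of one raises the others, and they were not tested. The RPKM of Tgfb3 was 13.0 and 12.1 times that of Tgfb2 under Control and 8.14 and 8.06 times under EDA-A2. Dividing by the longest transcript in place of merged exons lowered the mean share of Tgfb3 over the 4 libraries from 74.7% to 68.0%.

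**Figure D2:**
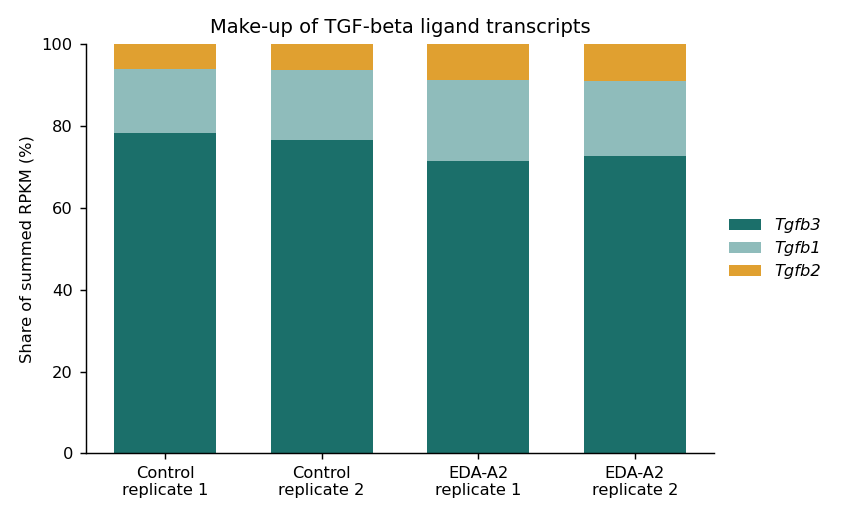
Share, in percent, of Tgfb1, Tgfb2 and Tgfb3 in the summed RPKM of the 3 TGF-beta ligands, as 1 stacked bar a library from 0 to the whole. Tgfb3 took 76.6% to 78.2% in the Control libraries and 71.3% to 72.7% in the EDA-A2 libraries, and Tgfb2 took 6.02% to 6.33% and 8.77% to 9.02%.

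Bmp4 and Inhba were the scarce ligands. Bmp4 (ENSMUSG00000021835, chr14:46620250-46636745, minus strand), a BMP that signals through Bmpr1a, had raw counts of 28 and 40 in Control and 37 and 24 in EDA-A2. Inhba (ENSMUSG00000041324, chr13:16186373-16206206, plus strand), the subunit that pairs with itself to form activin A, had raw counts of 72 and 79 in Control and 95 and 59 in EDA-A2. In both genes the EDA-A2 libraries lay on either side of at least 1 Control library. At these counts the intervals were wide. The log2 fold change was -0.21 for Bmp4 (95% interval -0.93 to 0.51, edgeR adjusted p = 0.855) and -0.026 for Inhba (95% interval -0.55 to 0.50, adjusted p = 0.977), so a change the size of that of Tgfb3 was not detectable in either at this depth.

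Among the type II receptors, which bind ligand and switch on the type I partner, Tgfbr2 is the one for TGF-betas. Tgfbr2 (ENSMUSG00000032440, chr9:115913361-116004800, minus strand) had 1551 and 1555 normalised counts in Control and 1375 and 1277 in EDA-A2. Both EDA-A2 libraries were below both Control libraries, which were almost equal. The means were 1553 ± 3.06 (SD, n = 2) and 1326 ± 69.7 (SD, n = 2). The change of Tgfbr2 was -0.23 on the log2 scale (SE 0.077, 95% interval -0.39 to -0.064), with an unadjusted p of 0.00963 and an edgeR adjusted p of 0.124, and did not pass.

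Acvr2a and Acvr2b, the type II receptors for activins, myostatin and some BMPs, encode close relatives. Their most alike stretch of 100 coding bases within 1 exon is shown, so that the likeness of the pair can be seen. It lies in exon 6 of each GENCODE canonical transcript on GRCm39, 5′ to 3′ on the plus strand, at chr2:48782181-48782280 (Acvr2a) and chr9:119258971-119259070 (Acvr2b), with differing bases in capitals.
Acvr2a: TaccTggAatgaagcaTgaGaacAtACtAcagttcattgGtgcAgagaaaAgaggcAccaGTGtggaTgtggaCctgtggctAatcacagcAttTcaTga
Acvr2b: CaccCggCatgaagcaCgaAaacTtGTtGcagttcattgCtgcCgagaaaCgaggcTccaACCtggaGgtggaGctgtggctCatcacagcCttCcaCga
Here 78 of 100 bases matched. In the most alike stretch of that length that may cross exon borders, 80 matched, and the longest identical run over the coding sequences was 14 bases.

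Acvr2a (ENSMUSG00000052155, chr2:48703743-48793283, plus strand) had 2298 and 2566 normalised counts in Control and 2507 and 2398 in EDA-A2. Both EDA-A2 libraries fell between the Control libraries, and the log2 fold change was 0.012 (SE 0.075, 95% interval -0.15 to 0.17, edgeR adjusted p = 0.969). Acvr2a shares 3081 exon bases with Orc4 on the opposite strand, a gene of the origin recognition complex with 1596 to 1860 counts per library. The strand option of the counting is not given in the sources used here, so part of the Acvr2a level is uncertain.

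Acvr2b (ENSMUSG00000061393, chr9:119231103-119271213, plus strand) had 110.2 and 138.2 normalised counts in Control and 102.9 and 103.2 in EDA-A2. The EDA-A2 libraries were below both Control libraries, but the gap to Control replicate 1 was smaller than the distance between the Control libraries. The log2 fold change of Acvr2b was -0.27 (SE 0.19, 95% interval -0.67 to 0.13, edgeR adjusted p = 0.570). It was -0.42 without Control replicate 1 and -0.096 without Control replicate 2. Per length, Acvr2a made up 95.9% and 95.4% of the summed RPKM of the pair in Control and 96.4% and 96.3% in EDA-A2. On that scale, the cultures of both conditions held 20.6 to 27.0 times as much Acvr2a as Acvr2b RNA. Dividing by the longest transcript gave 21.7 to 28.4 times. The exon bases that Acvr2a shares with Orc4 leave this ratio uncertain as well.

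The type I receptors gave no call. Tgfbr1 (ENSMUSG00000007613, chr4:47353134-47414931, plus strand), the kinase known as ALK5 that carries the TGF-beta signal, had 1036 and 1119 normalised counts in Control and 1005 and 1080.1 in EDA-A2. Its libraries overlapped, with a log2 fold change of -0.049 (SE 0.084, 95% interval -0.23 to 0.13, edgeR adjusted p = 0.867). Bmpr1a (ENSMUSG00000021796, chr14:34132687-34225379, minus strand), the BMP type I receptor ALK3, had 7515 and 6213 normalised counts in Control and 6776 and 6735 in EDA-A2. Both EDA-A2 libraries lay between the Control libraries, which were far apart. Bmpr1a had a log2 fold change of -0.023 (SE 0.082, 95% interval -0.20 to 0.15, edgeR adjusted p = 0.944). Of the 5 receptors, edgeR and DESeq2 thus each called 0, with 1 at an unadjusted p under 0.05 in edgeR, Tgfbr2.

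**Figure D3:**
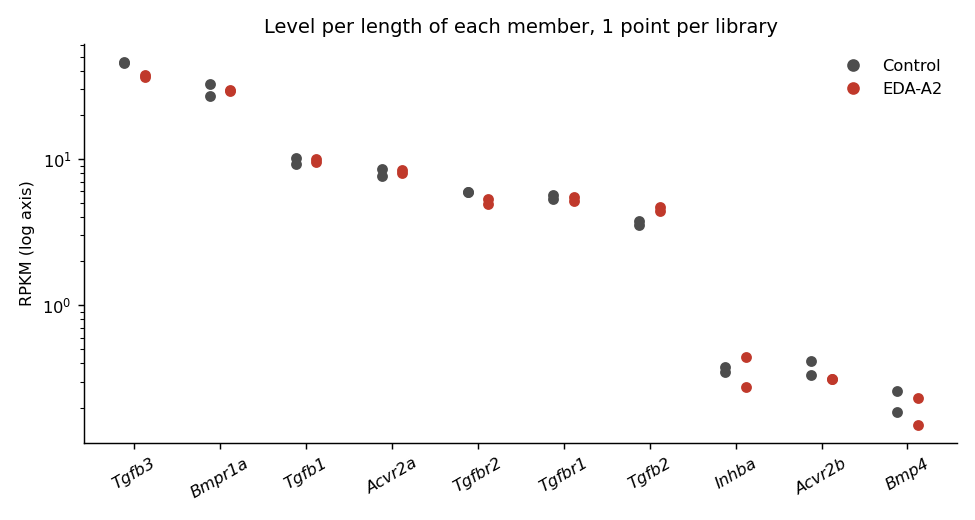
RPKM of the 10 genes in each of the 4 libraries, on a logarithmic axis, ordered by the mean; points are libraries, coloured by condition. Tgfb3 and Bmpr1a stood at the top with means of 41.3 and 29.7, and Inhba, Acvr2b and Bmp4 at the bottom under 0.5.

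By mean RPKM over the 4 libraries, the order of the levels ran from Tgfb3 at 41.3 (lowest to highest library 36.1 to 45.9) and Bmpr1a at 29.7 (27.1 to 32.7) to Tgfb1 at 9.73 (9.24 to 10.1) and Acvr2a at 8.18 (7.70 to 8.60). Tgfbr2 followed at 5.53 (4.91 to 5.98), Tgfbr1 at 5.41 (5.13 to 5.71) and Tgfb2 at 4.10 (3.53 to 4.68). The lowest RPKM belonged to Inhba at 0.362 (0.276 to 0.443), Acvr2b at 0.343 (0.311 to 0.417) and Bmp4 at 0.208 (0.152 to 0.260). The most abundant TGF-beta ligand and the most abundant receptor thus differed in branch, one a TGF-beta and the other a BMP receptor. By merged exons, the ranges of neighbours overlapped for Tgfbr2 and Tgfbr1 and for Inhba and Acvr2b, so these pairs have no order. For other neighbours they did not overlap by that length. Ranges by the longest transcript were not compared. With the longest transcript as the length, Tgfbr1 stood above Tgfbr2, at a mean RPKM of 6.02 against 5.68.

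**Figure D4:**
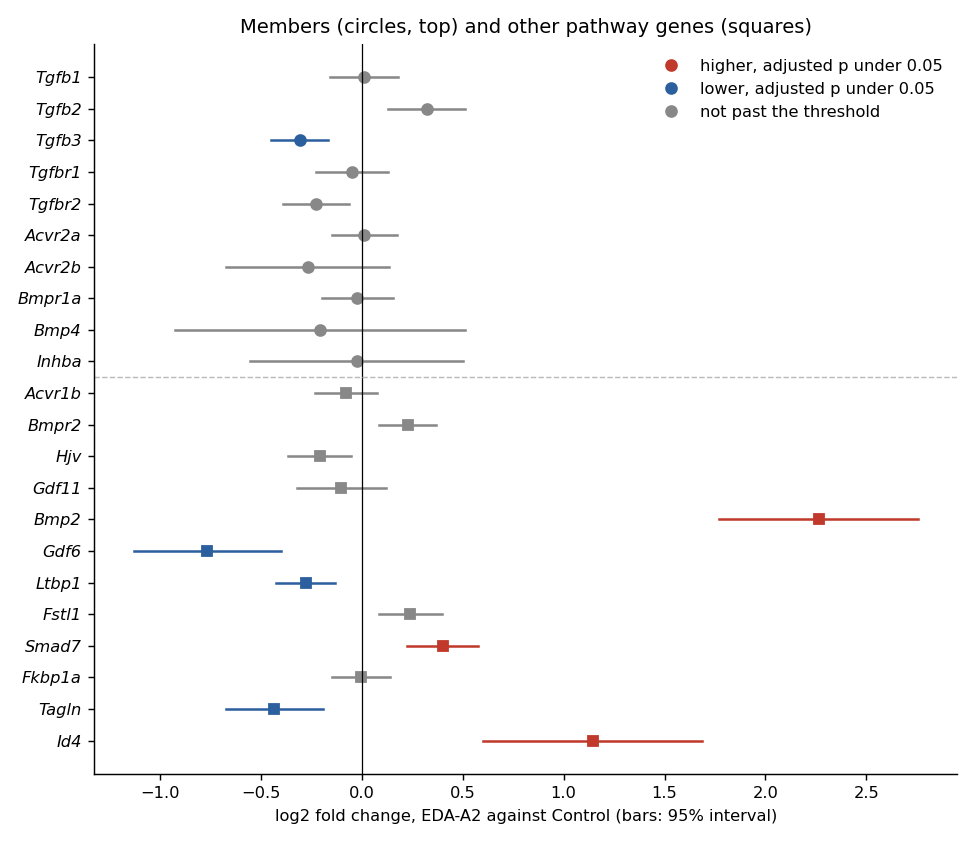
Log2 fold change, EDA-A2 against Control, of the 10 genes (circles, above the dashed line) and of 12 other pathway genes (squares), with 95% intervals from edgeR as bars. Tgfb3 is the only circle past the adjusted threshold, at -0.31, while Bmp2 among the squares lies farthest from 0, at 2.26.

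The rest of the pathway was read from lists of 103 other genes, of which 81 were tested. Of these, 3 rose and 3 fell, against 2.45% of all tested genes higher and 2.13% lower, and the median log2 fold change was -0.032. The split depended on scaling, with 6 higher and 1 lower under total counts and 7 higher and 4 lower with a replicate block. The 6 called genes came from 5 lists. The other 6 lists (type I receptors, type II receptors, co-receptors, TGF-beta, activin and GDF ligands, extracellular antagonists, and feedback and turnover) had 0 calls in edgeR and in DESeq2. Of their 5, 2, 6, 6, 13 and 8 tested genes, 0, 1, 2, 2, 6 and 1 had an unadjusted p under 0.05 in edgeR. Over all 81 genes, 26 had one, against 15.6% of all tested genes.

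Among 14 other BMP-type ligands, 5 were tested, 1 rose and 1 fell. Bmp2, a BMP close to Bmp4, had raw counts of 29 and 42 in Control and 199 and 156 in EDA-A2. Every EDA-A2 library was well above every Control library, and Bmp2 went from fewer counts than Inhba to more. The normalised means were 36.1 ± 8.82 (SD, n = 2) and 174 ± 29.5 (SD, n = 2), a fold of 4.80 (95% interval 3.41 to 6.76, edgeR adjusted p = 3.36e-05). Gdf6, a BMP-type ligand of joint and bone development, had 412.1 and 271.3 normalised counts in Control and 205.8 and 195.6 in EDA-A2. It fell, with a log2 fold change of -0.77 (SE 0.17, adjusted p = 0.0172) that was -0.43 without Control replicate 1 and -1.04 without Control replicate 2. The BMP-type ligands Bmp7, Bmp10, Bmp15, Gdf2 and Gdf10 had 0 counts in every library.

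The TGF-beta, activin and GDF ligands beyond the 10 numbered 14, with 6 tested and none called. The most counted, Gdf11, had a log2 fold change of -0.10 (edgeR adjusted p = 0.730). Mstn, which encodes myostatin and was looked up for its role in muscle mass after its values were seen, had raw counts of 162 and 234 in Control and 155 and 135 in EDA-A2 (log2 fold change -0.50, SE 0.18, adjusted p = 0.158).

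Among the other receptors, no gene was called. Bmpr2, the BMP type II receptor and the most counted of its list, had 5032 and 4803 normalised counts in Control and 5865 and 5643 in EDA-A2, with a log2 fold change of 0.23 (SE 0.067, edgeR adjusted p = 0.0730). It passed under total counts (adjusted p = 0.0252) and with a replicate block (adjusted p = 0.0354). Acvr1b, the activin type I receptor ALK4, had a log2 fold change of -0.079 (adjusted p = 0.691). Hjv, the BMP co-receptor hemojuvelin, had one of -0.21 (adjusted p = 0.145).

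Latent storage and activation comprised 12 genes, all tested, of which 1 fell. Ltbp1, which tethers latent TGF-beta to the matrix, had 3834 and 4109 normalised counts in Control and 3263 and 3287 in EDA-A2. Both EDA-A2 libraries were below both Control libraries, with a log2 fold change of -0.28 (SE 0.068, edgeR adjusted p = 0.0298). Scaling by total counts ended that call (edgeR adjusted p = 0.0974), and so did no filter (edgeR adjusted p = 0.197). Of 16 extracellular antagonists, which bind ligands and keep them from receptors, 13 were tested and none was called. The most counted, Fstl1, had a log2 fold change of 0.24 (adjusted p = 0.0855), or 0.15 without Control replicate 1. Fstl1 passed under total counts (adjusted p = 0.0423) and with a replicate block (adjusted p = 0.0367), where Twsg1 passed as well.

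Inside the cell, 8 SMADs were tested and 1 rose. Smad7, the inhibitory SMAD that blocks type I receptors and is itself induced by TGF-beta, had 934.5 and 899.5 normalised counts in Control and 1168 and 1252 in EDA-A2. The groups did not overlap, as for 45.0% of all genes, and its log2 fold change was 0.40 (SE 0.082, edgeR adjusted p = 0.00977). With no filter the Smad7 call was lost (edgeR adjusted p = 0.139). With 1 library left out, the log2 fold change of Smad7 was 0.35 to 0.45, which is a range of sizes and not of calls. All 8 genes of feedback and turnover were tested and none was called. The most counted, Fkbp1a, had a log2 fold change of -0.0047 (adjusted p = 0.984).

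Target genes moved in both directions. Of 10 TGF-beta and activin targets, 1 fell. Tagln, an actin-binding protein of smooth muscle, had 529.6 and 454.8 normalised counts in Control and 352.9 and 375.4 in EDA-A2, with a log2 fold change of -0.43 (SE 0.11, edgeR adjusted p = 0.0412). This call was lost with total counts (edgeR adjusted p = 0.0838), with no filter (edgeR adjusted p = 0.264) and in DESeq2 (adjusted p = 0.122). Of the 6 smooth muscle and pericyte markers, which summed to 127 and 132 CPM in Control and 114 and 124 CPM in EDA-A2, 1 was lower (Pdgfrb), and their part in the Tagln result was not tested.

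Of 7 BMP targets, 6 were tested and 1 rose. Only 2 of the 6 had a log2 fold change above 0, and the median was -0.13. Not called were Id2 at 0.22, Id1 at -0.18, Id3 at -0.27, Atoh8 at -0.33 and Hey1 at -0.080. Id4, a helix-loop-helix inhibitor of DNA binding, had 37.1 and 69.6 normalised counts in Control and 120.6 and 116 in EDA-A2. Both EDA-A2 libraries were above both Control libraries, which differed widely from each other. Id4 had a log2 fold change of 1.14 (SE 0.25, edgeR adjusted p = 0.0168), or 0.77 without Control replicate 1 and 1.67 without Control replicate 2. Without either Control library in turn, 0 genes of the whole table passed in edgeR, at 2179 and 2449 genes with an unadjusted p under 0.05, so no call named here outlasted the loss of a Control library.

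**Figure D5:**
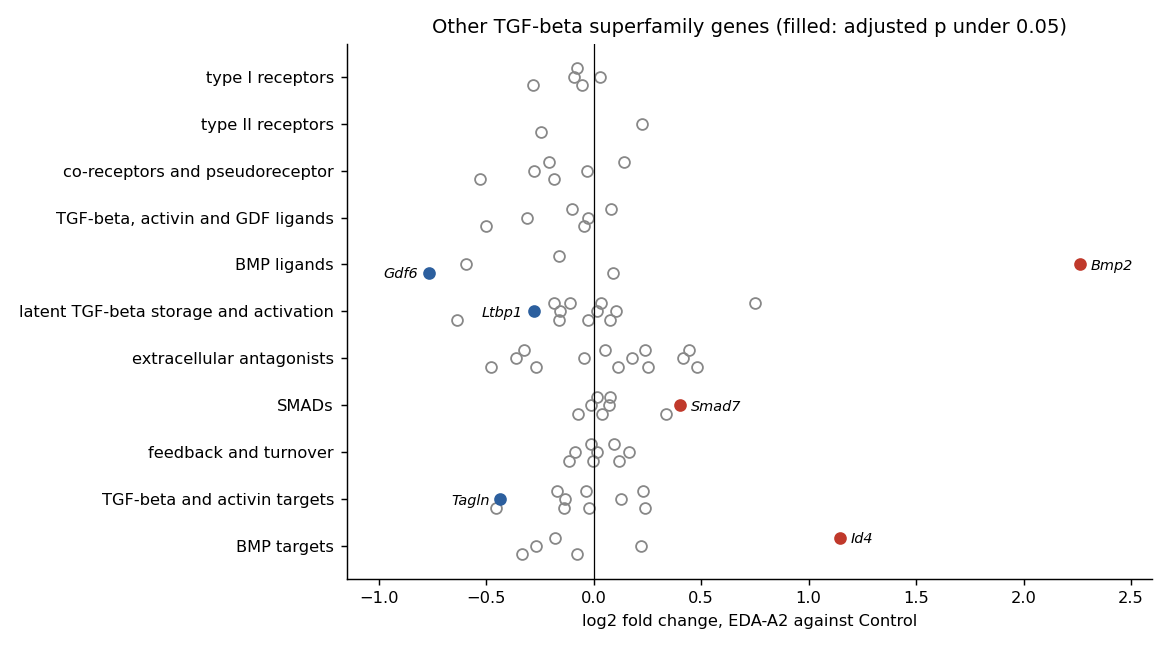
Log2 fold change, EDA-A2 against Control, of the 81 tested pathway genes outside the 10, 1 circle a gene and 1 row a list; filled circles passed the adjusted threshold of 0.05. Bmp2, Smad7 and Id4 are filled on the higher side and Gdf6, Ltbp1 and Tagln on the lower side, and most open circles lie near 0.

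Across the 4 libraries, the genes of the pathway whose log2 CPM ran most like that of Tgfb3 were Chrd, Id3 and Ltbp1, at Euclidean distances of 0.073, 0.079 and 0.094 between centred values, among 90 genes compared. Those nearest to Tgfb1 were Acvr2a, Itgb8 and Col3a1, at distances of 0.024, 0.055 and 0.083. The likeness is over 4 libraries only and is a description.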

How the data were processed

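The authors deposited HTSeq counts of read pairs per Ensembl gene, 1 table a library, as whole numbers without normalization or pooling. Libraries were made with a stranded polyadenylated RNA kit. The submitters' processing notes name FastQC 0.11.9, Trim Galore 0.6.5, STAR 2.7.3a, HTSeq 0.11.1, MultiQC 1.12 and GRCm39. The annotation release, the strand option and the study's test are not given in the sources used here. The 5 HTSeq summary lines were left out: 6.68% to 7.40% of pairs had no feature, 0.946% to 0.986% were ambiguous and 4.56% to 4.76% were not unique. Gene IDs were matched to GENCODE vM39, with 52610 of 53647 found.

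Counts were tested in R 4.3.3 with edgeR 4.0.16 (TMM, glmQLFit and glmQLFTest after filterByExpr at 10 counts a library and 15 in total), condition as the only term, all 4 libraries, Benjamini-Hochberg over all genes tested, threshold 0.05. Standard errors are the log2 fold change over the square root of F. RPKM were computed here from the merged exons of each gene and TMM-adjusted totals. Neither levels nor shares were tested. Likeness used log2(CPM + 0.5). Steps were tested on simulated data.

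The genes and lists were chosen with earlier results of these data known. Named were all 10 genes, in each pathway list every called gene (up to 4) or else the most counted, and the 3 genes nearest to Tgfb3 and to Tgfb1. Replicates of a condition differed by more than sampling noise (chi-square per gene 9.33 for Control and 4.45 for EDA-A2). The 95% intervals of fold changes come from the edgeR fit and include the spread between libraries, whereas the limit that a count of 0 allows covers counting error only. The alternatives tried were the Wald test of DESeq2 1.42.0, scaling by total counts, by upper quartiles or by the size factors of DESeq2, no filter or a filter of 10 counts per library, a replicate block, only protein-coding genes, a threshold of 0.1, transcript length and the loss of each library in turn.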

Additional observations from a re-analysis of the deposited data

How the results depend on the processing

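Of the 22 named genes, 18 kept their sign in all 8 other settings. Among the 10 ligands and receptors, the count called was 1 with edgeR's TMM, DESeq2 size factors, upper quartile factors, the minimum of 10 counts, protein-coding genes and the DESeq2 Wald test. It was 2 with total counts and at the threshold of 0.1, Tgfb2 being the second. It was 0 with no filter (3 at an unadjusted p under 0.05, Tgfb3 at an adjusted p of 0.121) and 0 to 0 when 1 library was left out (2 to 4 at an unadjusted p under 0.05). Such a fit assumes that the lone library varies like the others. The count of other pathway genes called, 6 in all, was 1 with no filter, 10 at the threshold of 0.1 and 0 to 4 without 1 library. The count of all genes called, 694, was 86 of 25545 tested with no filter and 0 to 402 without 1 library. More genes were tested without the filter. Under DESeq2, 546 were called. Total counts moved the share of higher calls from 53.5% to 71.4%, shifted the median log2 fold change by 0.055 and turned the sign of Tgfbr1 (0.0058), Bmpr1a (0.033), Inhba (0.030) and Fkbp1a (0.050), none of them called in either. The cause was not tested.

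Leaving out 1 library gave log2 fold changes of -0.052 to 0.081 for Tgfb1, -0.10 to 0.0090 for Tgfbr1, -0.064 to 0.095 for Acvr2a, -0.15 to 0.12 for Bmpr1a, -0.55 to 0.065 for Bmp4, -0.41 to 0.27 for Inhba, -0.30 to 0.13 for Gdf11 and -0.040 to 0.034 for Fkbp1a, which changed sign. Length by the longest transcript gave a mean Tgfb3 share of 68.0% and moved the place of 2 genes in the order of levels.

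The replicate numbers were not taken to pair the libraries, and the labels do not say whether they do. Across the tested genes, the difference between the 2 Control replicates correlated at 0.083 with that between the same-numbered EDA-A2 replicates. With 2 libraries per condition, this value cannot settle whether the libraries are paired. With the replicate block, 2 of the 10 genes were called (Tgfb2, adjusted p = 0.0219, and Tgfb3, adjusted p = 0.0042), 11 other pathway genes and 1066 genes in all. The limits are 2 libraries per condition, an unstated origin of the replicates, and low counts of Bmp4, Inhba and Acvr2b.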
